A study of Homo sapiens with 22 samples.

Results

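The clustered histone genes were followed in MDA-MB-231, a widely used line of human breast cancer cells. They were taken as every protein-coding gene named as H1-1 to H1-6 or as a numbered H2AC, H2BC, H3C or H4C gene. This rule found 66 genes (6 of H1, 16 of H2A, 17 of H2B, 13 of H3 and 14 of H4) among the 60669 genes of each of 2 deposited tables, and 38 of them among the 14954 genes of the last one. Of these, 24 in the first table, 31 in the second and all 38 in the third reached 1 FPKM in 2 or more libraries, and the results below are for those.

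RNA from 22 libraries in 11 groups of 2 was sequenced, and all cells carry the genotype label WT. The knockdown table holds cells labelled B5, cells labelled shM3, shM3 cells with METTL3-WT put back (shM3_WT) and shM3 cells with METTL3-CD put back (shM3_CD), all at 2 to 3 months. The labels do not spell out B5, shM3 or CD, and they do not say which promoter drives the added METTL3 or whether a line is 1 clone. The DMSO table holds cells given DMSO, or 0.5 µM of JQ1, Molib or I-BET151, for 3 days. The CTRL table holds 3-day samples named CTRL, JQ1 and MW_JQ1; the last 2 both received JQ1 at 0.5 µM, and MW is not explained by the labels. JQ1 and I-BET151 are inhibitors of BET proteins, which bind acetylated histones through bromodomains, and METTL3 is the catalytic subunit of the m6A writer complex. The 2 JQ1 columns of the DMSO table were assigned by elimination, and as their replicates have no numbers they are lettered a and b.

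Nucleosomes wrap DNA around a core of H2A, H2B, H3 and H4, and H1 binds the linker DNA between them. In human cells most of these proteins come from intronless genes that lie in clusters on chromosomes 1 and 6 and are read mainly in S phase, when new DNA must be packed. Their messages normally carry no poly(A) tail: the transcript is cut just after a short stem-loop that SLBP binds, with help from the U7 snRNP. Some of the same genes can also be read past the stem-loop and give a polyadenylated message, above all in cells that have left the cycle. A library made from poly(A)+ RNA therefore samples these genes differently from a library of total or poly(A)- RNA. Replacement histones such as H3-3A and H2AZ1 come from other genes, and their messages are mainly polyadenylated.

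In the GENCODE 29 annotation of hg38, 32 members lay on chromosome 6 between 25726132 and 26285638, 21 on chromosome 6 between 27125897 and 27893843, and 11 on chromosome 1 between 149782689 and 149887916. H3C2 and H3C3 were not placed by this annotation. Of the 64 placed members, 32 had a transcript model with a 3′ UTR, and 28 of those held the stem-loop after the stop codon. It is shown for 6 members with large changes, as DNA letters in the sense of the message, with the stem-loop in capitals. The arms on both sides of the loop are reverse complements of each other, so that they can pair. H2BC4 and H2BC5 have the same 16 bases, and so do H2AC6, H2AC18 and H2BC21.
H2BC4 (chr6:26123467-26123492, minus): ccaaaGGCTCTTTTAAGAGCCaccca
H2BC5 (chr6:26158582-26158607, plus): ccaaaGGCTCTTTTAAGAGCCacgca
H2AC6 (chr6:26124664-26124689, plus): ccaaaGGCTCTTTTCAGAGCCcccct
H2AC18 (chr1:149842218-149842243, minus): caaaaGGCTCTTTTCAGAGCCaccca
H2BC21 (chr1:149886183-149886208, minus): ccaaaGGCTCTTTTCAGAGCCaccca
H4C14 (chr1:149833027-149833052, plus): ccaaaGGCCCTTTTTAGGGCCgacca

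The transcript models of several members run on well past this stem-loop. A model of H2BC21 went on for 1729 bases after it, one of H2AC6 for 1114, one of H3C10 for 769 and one of H4C8 for 630. The model of H2BC5 that holds the stem-loop stops 39 bases after it, and another model of that gene is spliced. H2BC12 and H1-2 are drawn as their coding bases alone (381 and 642 bases). A model was called extended when it was spliced or ran 100 bases or more past the stem-loop, which held for 22 of the 64 placed members. The deposited values cover H3C2 and H3C3, which GENCODE 29 lacks, so the models that collected the reads may differ from these.

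Promoters were read from RefSeq (GRCh38.p14), which had an entry for 61 of the 66 members. The windows were searched on both strands from 250 bases before to 50 bases after the start for 3 short motifs: the octamer ATTTGCAT, CCAAT and TATAAA, which may overlap each other in part. The octamer, a sequence that POU2F1 is known to bind in H2B genes, stood in 11 of 15 H2A and 14 of 17 H2B promoters and in none of the 6 H1, 11 H3 and 12 H4 promoters. Of all 35116 promoters, 1.77% held it. CCAAT stood in 52 of the 61 members (34.6% of all promoters) and TATAAA in 42 (11.5% of all). The 3 stretches that follow end just before a start and show how these promoters differ. One lies between H2BC4 and H2AC6, which are read in opposite directions from it and moved together below. Not all such neighbours did: H2BC21 rose in shM3, and H2AC20, read divergently from beside it, fell. Another of the 3 stretches belongs to H2BC12, the member with the highest FPKM in B5 and DMSO, and the last to H4C14, where none of the 3 motifs was found. Capitals mark the motifs on either strand, so ATTGG and TTTATA are the reverse of CCAAT and TATAAA.
H2BC4 (chr6:26123927-26124166, minus): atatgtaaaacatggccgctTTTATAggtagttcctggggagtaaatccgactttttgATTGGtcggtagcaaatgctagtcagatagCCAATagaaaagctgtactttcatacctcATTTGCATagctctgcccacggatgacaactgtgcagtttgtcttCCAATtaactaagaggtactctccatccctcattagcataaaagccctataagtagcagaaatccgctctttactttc
H2BC12 (chr6:27146856-27147105, minus): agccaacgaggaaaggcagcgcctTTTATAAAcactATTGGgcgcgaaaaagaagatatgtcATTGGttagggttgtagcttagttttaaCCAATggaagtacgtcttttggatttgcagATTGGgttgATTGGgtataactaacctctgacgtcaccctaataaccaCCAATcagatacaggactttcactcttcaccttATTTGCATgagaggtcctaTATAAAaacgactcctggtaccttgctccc
H4C14 (chr1:149832407-149832656, plus): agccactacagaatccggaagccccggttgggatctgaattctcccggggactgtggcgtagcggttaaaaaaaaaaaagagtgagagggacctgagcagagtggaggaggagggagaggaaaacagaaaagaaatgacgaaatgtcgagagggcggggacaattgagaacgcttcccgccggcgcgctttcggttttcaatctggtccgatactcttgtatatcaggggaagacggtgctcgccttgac

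Levels are FPKM, fragments scaled to gene length and library depth. Levels of different genes also depend on the model length used and on how shared reads were assigned, which are not stated. Differences are of log2(FPKM + 1), which understates the change of low genes, with the limma standard error (SE) and a p adjusted over all genes of the table (Benjamini-Hochberg). A member is said to rise or fall where that adjusted p is under 0.05. A member that reached 1 FPKM only in the group where it is high could pass only as higher there. Such members stay in the counts and medians. Folds are ratios of mean FPKM. Nothing says that libraries of 1 group were separate cultures, and the p-values then measure the spread between these samples alone, which may be technical. In bulk RNA, fewer cells in S phase and less RNA per cell cannot be told apart. In 4 pairs of members the coding sequence was identical (H2AC18 and H2AC19, H3C14 and H3C15, H4C11 and H4C12, H4C14 and H4C15), and such copies may share reads. Counts of members hold both copies of a pair. The 2 values of H2AC18 and H2AC19 kept a ratio of 1.02 to 1.05 in all 8 knockdown libraries and 1.02 to 1.03 in all 8 DMSO-table libraries, so the pair is described through H2AC18. In the authors' deposited table for CTRL, JQ1 and MW_JQ1 the mean signal of H2AC18 was 31.6 and that of H2BC12 was 3174, although their mean FPKM over the same libraries was 343 and 326. That of H2AC6 was 4390 at a mean of 113 FPKM. Ranks of members and shares of the sum are therefore given for FPKM alone, and another measure can order the genes differently.

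Some libraries stood apart or went against a label. METTL3, the targeted gene, was listed at 20.1 and 23.8 FPKM for B5, at 4.39 and 4.80 for shM3, at 312 and 311 for shM3_WT, and at 277 and 270 for shM3_CD. HEXIM1, which is known to rise under BET inhibitors, had 26.5 and 29.4 FPKM under DMSO, 73.8 and 76.7 under JQ1 and 72.9 and 69.6 under Molib, but 10.3 and 6.37 under I-BET151 by label. METTL3 in the CTRL table was 31.2 and 1.18 for CTRL, 11.8 and listed at 0 for JQ1, and 212 and 234 for MW_JQ1, and between 2053 and 3798 of 13261 tested genes were listed at 0 in each CTRL and JQ1 library against 86 and 72 in MW_JQ1. All 5 markers expected of MDA-MB-231 were above 1 FPKM in every group. The 7 luminal markers summed to 516 to 664 FPKM in B5, 601 to 651 in shM3, 352 to 370 in DMSO, 640 to 669 in JQ1, 640 to 649 in Molib and 372 to 385 in I-BET151, and the 4 of them listed in the CTRL table to 323 to 368 in CTRL, 723 to 903 in JQ1 and 727 to 790 in MW_JQ1. Only 4 of the 7 were above 1 FPKM in B5, shM3, DMSO and JQ1 of the DMSO table. With JQ1 against DMSO, 2 of 4 tested rose and 2 fell (14.5% of all genes rose and 20.6% fell), so the sum does not describe each marker. Of 5 haematopoietic markers, 2 were listed at 0 in B5 and in shM3, and their sum moved with the groups, from 41.8 and 52.9 in B5 to 11.4 and 13.1 in shM3, and from 30 and 32.1 in DMSO to 4.52 and 5.57 in JQ1. Of 6 fibroblast and endothelial markers, whose sum was at most 16.6 FPKM, 3 of 4 tested fell in shM3 and 2 of 3 with JQ1 (19.9% and 20.6% of all genes fell). The part of these markers in the results was not tested. Of 4 genes known to respond to BET inhibitors, 3 rose with JQ1 and with Molib (14.5% and 14.8% of all genes rose). None rose and 1 fell in the libraries labelled I-BET151 (13.9% of all genes rose and 14.1% fell). The FPKM of B5 replicate 2 summed to 8657368, against 426106 to 469180 in the others, and without it 15 members rose and 1 fell in shM3.

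In B5 and DMSO most members were faint, and the total came from a few genes. Summed over the 66 members, B5 held 192 and 170 FPKM and DMSO held 189 and 194. H2BC12, a core H2B gene, made up 41.7% and 37.4% of that sum in B5 and 46.6% and 42.3% in DMSO. H1-2, a linker histone, was at 28.5 and 24.3 in B5, and H2BC5 was at 22.1 and 19.9. Of the 66 members, 16 were listed at 0 in every library of the knockdown table and 8 in every library of the DMSO table. At the limit of 1 FPKM, H2BC18 (second-highest library at 1.30) was just inside in the knockdown table and H3C2 (0.985) just outside, and in the DMSO table H4C3 (1.79) was just inside and H2AC15 (0.962) just outside. Members with extended models were more often detected in these tables: 13 of 22 such members were reported in the knockdown table against 10 of 42 with short models, and 16 of 22 against 13 of 42 in the DMSO table. In the CTRL table it was 13 of 22 against 23 of 42.

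**Figure D1:**
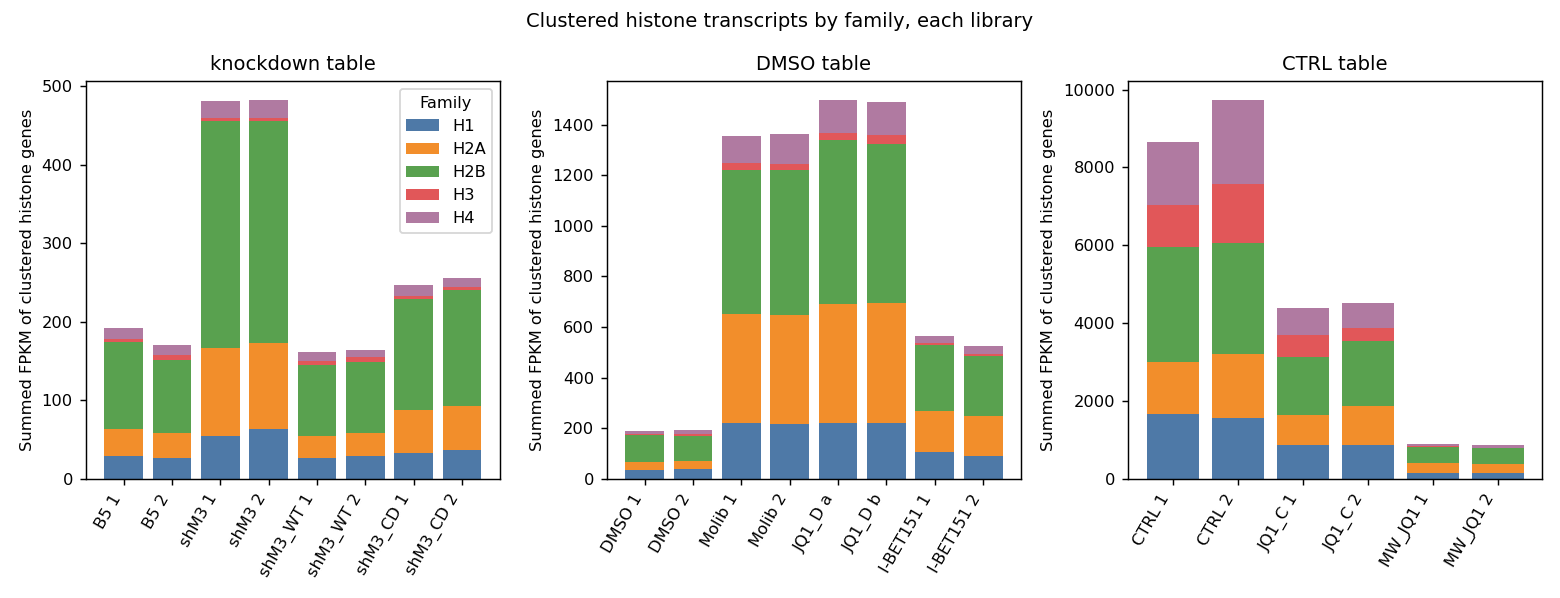
Stacked bars give the FPKM of all listed clustered histone genes, summed by family, for each library (x axis: group and replicate; JQ1_D and JQ1_C are the JQ1 libraries of the DMSO and CTRL tables), with a y axis of its own for each table. The sums run from 162 to 483 in the knockdown table, from 189 to 1498 in the DMSO table and from 861 to 9733 in the CTRL table, where MW_JQ1 is the lowest.

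After METTL3 knockdown the clustered histone transcripts went up. Their sum was 481 and 483 FPKM in shM3 against 192 and 170 in B5, 2.66-fold higher, and neither group reached into the other. Of 24 members tested, 16 rose and 1 fell, while 37.8% of all 14638 genes passed the test in either direction and 17.9% rose. The median log2 difference was 0.89 for the members and -0.00 for all genes. The family sums in shM3 were 3.34-fold (H2A), 2.80-fold (H2B), 2.12-fold (H1), 1.71-fold (H4) and 0.836-fold (H3) those of B5. These family ratios were not tested against each other.

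The H2B genes held the largest single change. H2BC4 had 2.69 and 2.68 FPKM in the B5 libraries and 21.9 and 19.3 in those of shM3. Both shM3 libraries were thus 7.68-fold higher on average (log2 2.55, SE 0.19, adjusted p = 0.00016). H2BC5, its neighbour in the first chromosome 6 cluster, went from 22.1 and 19.9 to 67.2 and 64.0 (log2 1.60, SE 0.10, adjusted p = 7.6e-05). H2BC12 started highest and went from 80.1 and 63.6 to 176 in both shM3 libraries, 2.45-fold higher (log2 1.29, SE 0.11, adjusted p = 0.00023). H2BC21, an H2B gene of the chromosome 1 cluster, went from 1.29 and 1.39 to 5.74 and 6.53 (log2 1.61). H2BC11 (log2 1.82), H2BC6 (1.46) and H2BC18 (0.81) rose as well, and H2BC15 (0.62, adjusted p = 0.054) and H2BC17 (0.35, adjusted p = 0.38) did not pass. H2BC18 reached 1 FPKM in the shM3 libraries alone, so it was tested only because it was high there.

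Among H2A genes the pattern split by gene. H2AC18 went from 7.95 and 6.37 FPKM in B5 to 31.8 and 29.2 in shM3 (log2 1.95, SE 0.11, adjusted p = 6.1e-05), with its copy H2AC19 at the same ratio. H2AC6, which shares its promoter region with H2BC4, went from 12.7 and 15.4 to 45.6 and 48.0 (log2 1.67, SE 0.16, adjusted p = 0.00043). The opposite held for H2AC20, which was at 1.96 and 1.26 in B5 and at 0.0817 and 0.55 in shM3 and was the 1 member that fell (log2 -1.0, SE 0.25, adjusted p = 0.018). H2AC20 is a short gene read divergently from beside H2BC21, and its GENCODE model is 390 bases of coding sequence alone.

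The linker histone H1-2 rose from 28.5 and 24.3 to 54.4 and 62.5 FPKM (log2 1.12, SE 0.11, adjusted p = 0.00042), while H1-4 was at 1.02 and 1.69 in B5 and 0.453 and 0.75 in shM3 (log2 -0.55, adjusted p = 0.15). Of 2 H3 genes, H3C10 rose (0.581 and 0.813 to 2.07 and 2.04, log2 0.85), and H3C3 was lower in both shM3 libraries (0.946 and 2.13 against 0.275 and 0.614) without passing (log2 -0.78, adjusted p = 0.053). H3C10 reached 1 FPKM in shM3 and shM3_CD alone, so it was tested only because it was high there. The H4 genes H4C8, H4C9, H4C14 and H4C15 rose by log2 1.1, 0.93, 0.78 and 0.72, and H4C11 and H4C12, which share 1 coding sequence, were at log2 -0.81 and -0.44 (adjusted p = 0.080 and 0.067). H4C8 was at 5.78 and 3.28 in B5 and 10.7 and 10.4 in shM3, and its call was lost in 4 of 12 alternative settings, among them without B5 replicate 2 and without either shM3 library (highest adjusted p = 0.13). The members that were lower in shM3 all lay under 3 FPKM in every library of B5 and shM3.

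**Figure D2:**
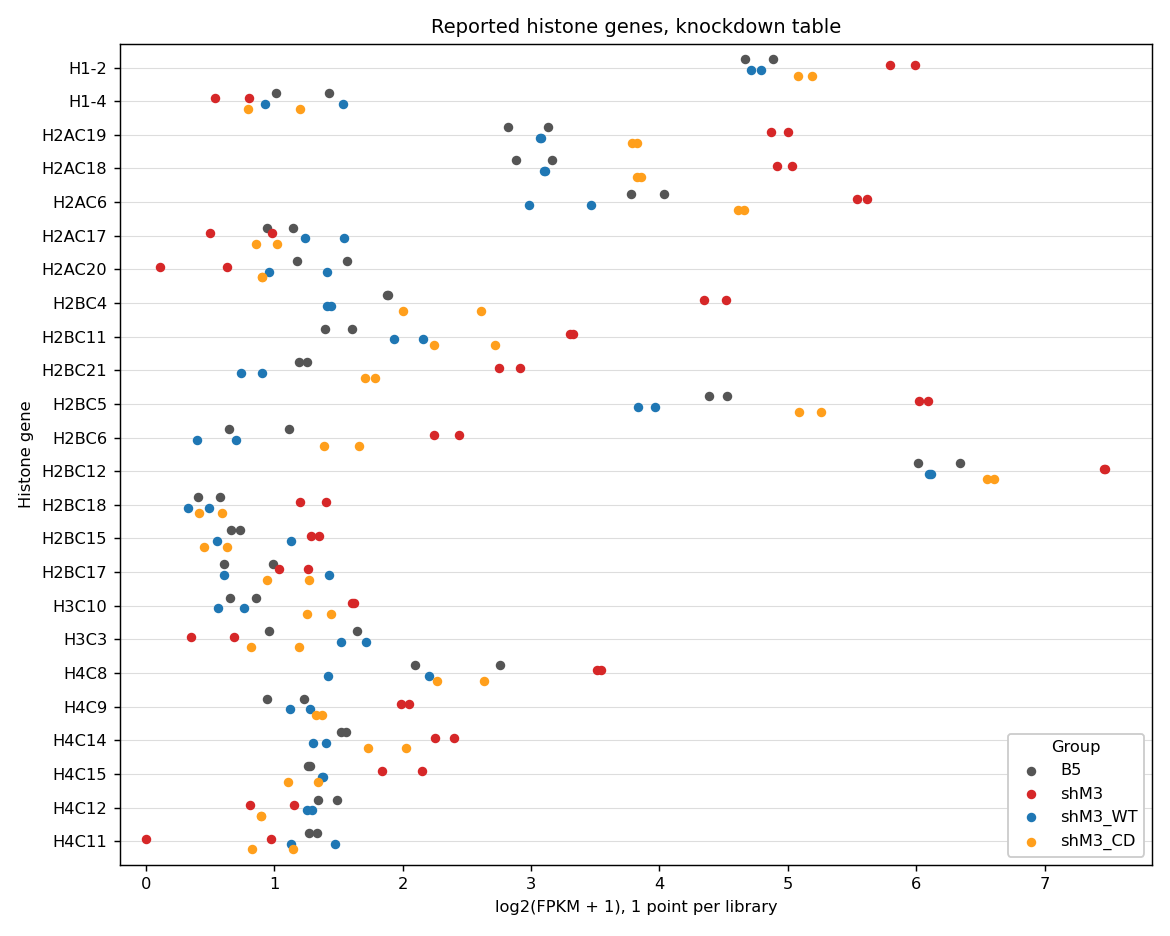
Points give log2(FPKM + 1) of each reported histone gene (y axis, by family and then by the size of the shM3 minus B5 difference) in the 2 libraries of B5, shM3, shM3_WT and shM3_CD. The red shM3 points of H2BC4 (21.9 and 19.3 FPKM), H2AC18 and H2AC6 stand to the right of all others, with shM3_CD between shM3 and B5 for H2AC18, H2AC6 and H2BC5.

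Putting METTL3 back brought most of these transcripts down, the WT form further than the CD form. In shM3_WT the members summed to 162 and 165 FPKM, 2.95-fold lower than in shM3, and in shM3_CD to 247 and 256, 1.92-fold lower. Of 24 members, 16 fell and 3 rose in shM3_WT against shM3 (39.4% of all genes passed, 22.7% by falling), with a median of -0.96 against -0.08 over all genes. In shM3_CD against shM3, 13 fell and none rose (11.4% of all genes passed, 4.59% by falling and 6.82% by rising), with a median of -0.78 against 0.01. These comparisons and the knockdown itself share the shM3 libraries, so their values are set side by side and not as separate support.

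H2BC4 was at 1.67 and 1.73 FPKM in shM3_WT and at 5.11 and 3.00 in shM3_CD, against 21.9 and 19.3 in shM3. The fall was 12.1-fold with WT (log2 -3.0, SE 0.19, adjusted p = 8.0e-05) and 5.08-fold with CD (log2 -2.12, SE 0.19, adjusted p = 0.0013). H2AC6 was at 6.90 and 10.1 with WT and at 23.5 and 24.3 with CD (log2 -2.35 and -0.94 against shM3). H2BC5 was at 13.3 and 14.6 with WT and 33.0 and 37.3 with CD (log2 -2.16 and -0.88). H2BC12 was at 67.7 and 68.4 with WT and 92.8 and 96.3 with CD (log2 -1.36 and -0.89), and H1-2 at 25.3 and 26.7 with WT and 32.7 and 35.5 with CD (log2 -1.14 and -0.76). The members that rose with WT were the low ones: H3C3 (0.275 and 0.614 in shM3, 1.88 and 2.29 in shM3_WT, log2 1.1), H2AC20 (log2 0.81) and H2AC17 (log2 0.65).

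The WT and CD libraries also differed directly. In shM3_WT against shM3_CD, 11 of 24 members were lower and none higher (25.9% of all genes passed, 15.7% by being lower). H2AC6 was 2.82-fold lower with WT (log2 -1.41, SE 0.16, adjusted p = 0.0020), H2BC5 2.52-fold (log2 -1.27, SE 0.10, adjusted p = 0.00064), H2BC21 3.06-fold (log2 -0.93) and H2BC4 2.39-fold (log2 -0.87, SE 0.19, adjusted p = 0.018). H2BC6 (-0.97), H2AC18 (-0.73), H3C10 (-0.69), H4C14 (-0.52), H2BC12 (-0.47) and H1-2 (-0.38) were lower with WT too. H4C8 was at log2 -0.64 and H3C3 at 0.62 without passing (adjusted p = 0.17 and 0.13). Leaving out a library lowered both counts: 6 to 8 members fell in shM3_CD against shM3 without any 1 of its 4 libraries, and 6 or 7 were lower in shM3_WT against shM3_CD. With the values scaled to equal medians or by TMM factors, 8 were lower in the second comparison, and the calls of H1-2, H2BC12 and H4C14 were among those lost.

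In the DMSO table the clustered histone transcripts summed higher with each compound than with DMSO. The JQ1 libraries of the CTRL table, described below, went the other way (4378 and 4516 FPKM against 8645 and 9733 in CTRL). The 66 members summed to 189 and 194 FPKM with DMSO, 1498 and 1490 with JQ1, 1355 and 1364 with Molib, and 566 and 525 where the label was I-BET151. This made the sum 7.80-fold (JQ1), 7.10-fold (Molib) and 2.85-fold (I-BET151) that of DMSO. Of 31 members tested, 24 rose with JQ1 and none fell (35.1% of 14936 genes passed, 14.5% by rising), and 24 rose with Molib and none fell (35.3% passed, 14.8% by rising). In the libraries labelled I-BET151, 16 rose and none fell (28.0% passed, 13.9% by rising). The median log2 differences of the members were 2.00, 1.88 and 0.67, against -0.04, -0.03 and -0.00 for all genes. These 3 comparisons share the DMSO libraries. Fitted without the I-BET151 libraries, 24 members rose with JQ1 and 23 with Molib.

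H2BC4 was again at the top. It had 0.863 and 0.851 FPKM under DMSO, 51.4 and 48.9 under JQ1, 33.4 and 36.5 under Molib and 23.5 and 18.5 under I-BET151. The log2 difference from DMSO was 4.78 for JQ1 (SE 0.13, adjusted p = 2.0e-06), 4.27 for Molib and 3.56 for I-BET151. The DMSO level is under 1 FPKM, so its 58.6-fold rise with JQ1 rests on few fragments in DMSO. H2BC5 went from 8.81 and 10.2 to 234 and 226 with JQ1, 184 and 193 with Molib and 87.7 and 92.1 with I-BET151, which was 24.2-fold, 19.9-fold and 9.48-fold. H2BC21 went from 0.480 and 1.03 to 26.8 and 26.4, 24.2 and 22.1, and 16.7 and 19.1 (log2 3.99, 3.80 and 3.44). All 9 reported H2B genes rose with JQ1 and with Molib, and 7 of them with I-BET151. H2BC4, H2BC15 and H2BC18 reached 1 FPKM in no DMSO library, so they were tested only because they were high with the compounds.

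H2BC12 showed where the compounds parted. It had 88.2 and 81.9 FPKM under DMSO, 291 and 281 under JQ1 and 279 and 280 under Molib (log2 1.74 and 1.71, SE 0.09 each), but 93.9 and 83.8 under I-BET151, overlapping DMSO. That difference was log2 0.06 with a 95% interval of -0.16 to 0.28 (adjusted p = 0.67). As a result H2BC12, the highest member in DMSO, JQ1 and Molib, was not the highest in either I-BET151 library, where H1-2 and H2BC5 led. H2BC11, by contrast, had 4.30 and 4.58 FPKM under DMSO, 26.9 and 24.9 under JQ1 and 28.4 and 16.4 in I-BET151 (log2 2.30 and 2.05). The JQ1 and I-BET151 libraries of H2BC11 overlapped, and those of H2BC12 lay far apart.

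Of the H2A genes, H2AC6 had 7.75 and 7.10 FPKM under DMSO, 155 and 161 under JQ1, 132 and 139 under Molib and 53.2 and 63.5 under I-BET151 (log2 4.24, 4.02 and 2.81). H2AC18 was at 8.20 and 7.87, 152 in both JQ1 libraries, 142 and 138, and 52.1 and 45.7 (log2 4.08, 3.96 and 2.46, with adjusted p of 1.4e-06, 1.5e-06 and 2.4e-05). Both therefore rose in the order I-BET151, Molib, JQ1, as H2BC4 and H2BC5 did. H2AC11 (log2 2.19 with JQ1) and H2AC13 (1.5) rose with JQ1 and Molib and did not pass with I-BET151 (0.52 and 0.16). H2AC13 reached 1 FPKM under JQ1 and Molib alone, so it was tested only because it was high there. H2AC11 reached 1 FPKM in no DMSO library either, and was tested only because it was high with the compounds. H2AC20 and H2AC17 passed with none of the 3 compounds. H1-2 rose from 34.6 and 38.2 to 217 and 216 with JQ1, 219 and 215 with Molib, and 104 and 87.2 with I-BET151 (log2 2.54, 2.54 and 1.36), and H1-4 stayed between 1.5 and 2.87 in all 8 libraries and passed nowhere against DMSO.

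The H3 and H4 genes rose with JQ1 and Molib from low levels. H4C14 went from 2.73 and 3.05 FPKM to 57.1 and 59.2 with JQ1 and 49.3 and 50.4 with Molib, but to 9.54 and 9.17 with I-BET151 (log2 3.93, 3.71 and 1.41). H4C15, with the same coding sequence, moved by log2 3.32, 3.01 and 1.03, and H4C8 went from 1.22 and 2.81 to 31.6 and 28.2 with JQ1 and to 10.7 and 11.6 with I-BET151 (log2 3.41 and 2.06). H3C10 had 0.772 and 0.946 FPKM under DMSO, 8.66 and 9.50 under JQ1, 7.53 and 8.37 under Molib and 1.38 and 1.29 under I-BET151, where it did not pass (log2 0.33, adjusted p = 0.088). As H3C10 reached 1 FPKM in no DMSO library, it was tested only because it was higher with the compounds. Of the H3 genes, 5 of 6 rose with JQ1 and 2 of 6 with I-BET151, and of the H4 genes 4 of 7 and 3 of 7. These counts hold both copies of the identical pairs. H4C3, H4C11 and H4C12 passed with no compound against DMSO.

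**Figure D3:**
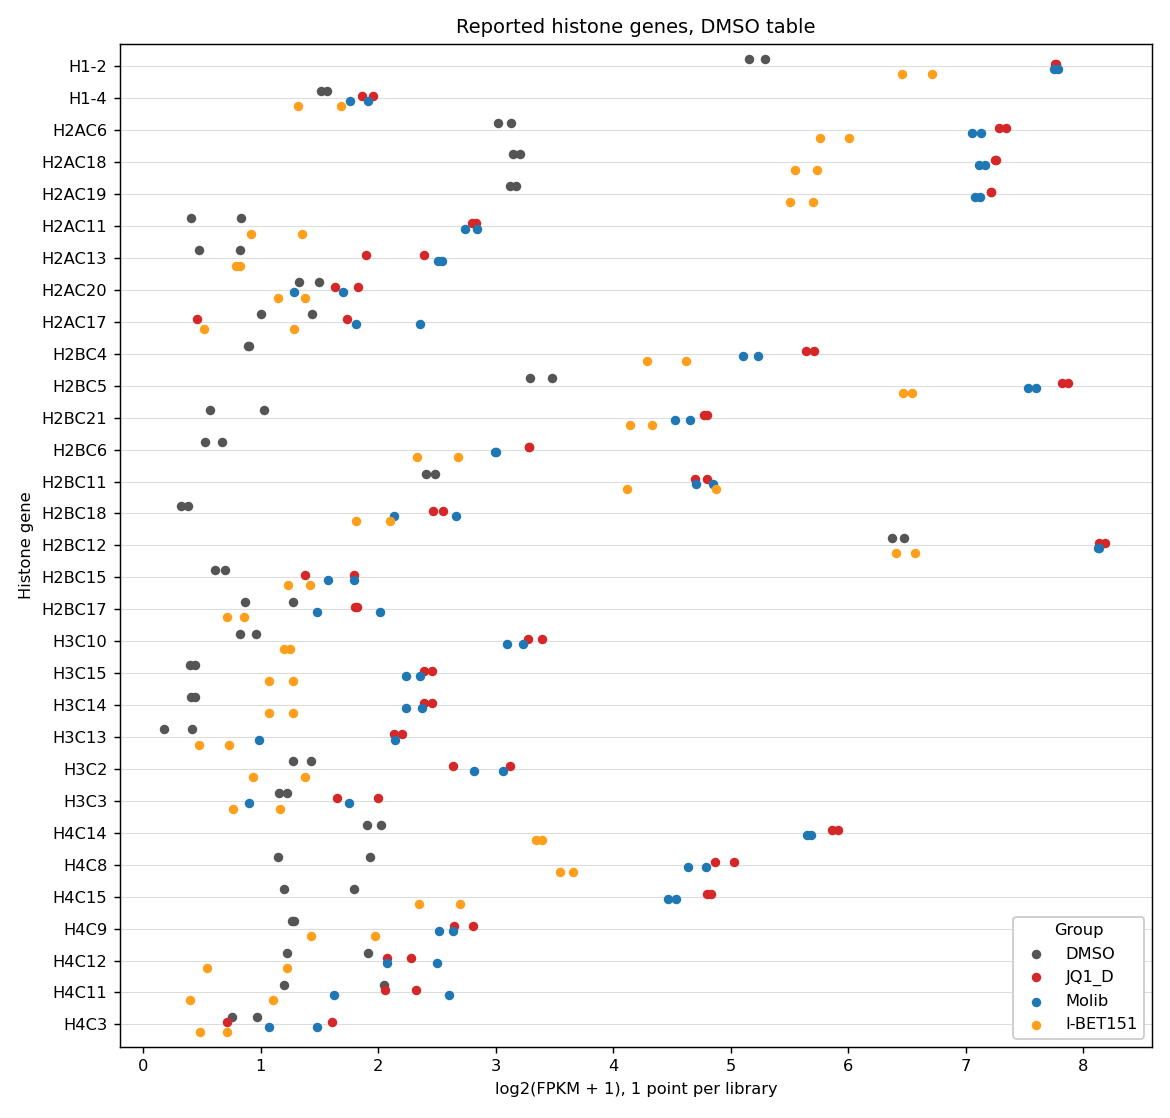
Points give log2(FPKM + 1) of each reported histone gene (y axis, by family and then by the size of the JQ1 minus DMSO difference) in the 2 libraries of DMSO, JQ1 (JQ1_D), Molib and I-BET151. JQ1 and Molib points lie near each other, and I-BET151 points lie between them and DMSO for most H2A and H2B genes, but on DMSO for H2BC12 (93.9 and 83.8 FPKM against 88.2 and 81.9).

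The compounds were compared with each other at the same dose and time. Molib against JQ1 gave no passing member and no passing gene (0.0% of 14936), while 2 members and 1227 genes were at an unadjusted p under 0.05 in limma. Those 2 members were H2BC4 (log2 -0.51, 95% interval -0.81 to -0.20, adjusted p = 0.51) and H2BC5 (-0.28, interval -0.51 to -0.05, adjusted p = 0.57), and both Molib libraries were under both JQ1 libraries in each. For H1-2 the difference was 0.00 (interval -0.26 to 0.26), for H2BC12 -0.03 (-0.25 to 0.19) and for H2AC6 -0.22 (-0.49 to 0.04). For H3C10 it was -0.17 (-0.46 to 0.12) and for H4C14 -0.22 (-0.44 to 0.01). A missed threshold does not show that the compounds act alike.

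The libraries labelled I-BET151 were lower than JQ1 in 24 of 31 members and higher in none (44.6% of all genes passed, 20.1% by being lower), and lower than Molib in 21 and higher in none (43.5% passed, 19.9% by being lower). H4C14 was 6.22-fold lower than with JQ1 (log2 -2.51, SE 0.10, adjusted p = 7.5e-06), H3C10 6.80-fold lower (log2 -2.11) and H2BC12 3.22-fold lower (log2 -1.68, SE 0.09, adjusted p = 3.1e-05). The gap was smaller for H2BC21 (1.49-fold, log2 -0.55, adjusted p = 0.029), and H2BC11 did not pass (log2 -0.25, interval -0.77 to 0.27). H2AC11 (-1.68), H2AC18 (-1.62), H2AC6 (-1.43), H3C2 (-1.72), H3C13 (-1.56), H4C15 (-2.29) and H4C11 (-1.44) were lower than with JQ1 as well. Since HEXIM1 fell in these libraries and rose in the other 2 inhibitor groups, the compound in them rests on the label alone.

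Set beside each other, knockdown and JQ1 moved the members in a like order, in tables that share no library. All 16 members that rose in shM3 also rose with JQ1, which is all of the first set and 66.7% of the 24 in the second. Of all genes, 17.9% rose in shM3 and 14.5% with JQ1. The overlap and correlation over all genes were not computed, so neither is shown to be particular to the members. The 16 count both copies of H2AC18 and H2AC19 and of H4C14 and H4C15. Over the 24 members tested in both, the log2 differences had r = 0.856 and rho = 0.852, given as a description because members are not independent and some share reads. H2AC17, H2AC20, H1-4, H3C3, H4C11 and H4C12 rose in neither, and H2AC20 fell in shM3. H4C14 and H4C15 were at log2 3.93 and 3.32 with JQ1 and at 0.78 and 0.72 in shM3. For H2BC11 the 2 values were close, at 2.30 and 1.82.

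**Figure D4:**
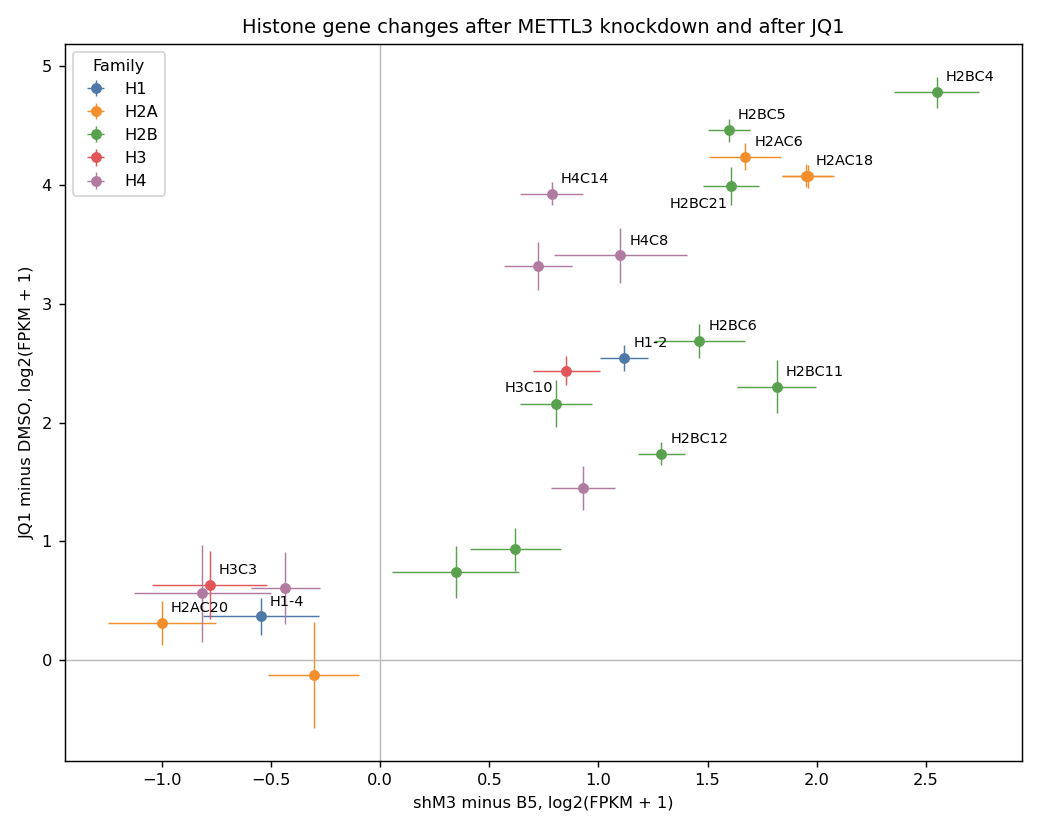
Each point is 1 of the 24 histone genes tested in both tables, with shM3 minus B5 on the x axis and JQ1 minus DMSO on the y axis, both as differences of log2(FPKM + 1), and bars of 1 SE. H2BC4 is at the upper right (2.55 and 4.78), and H2AC20, H3C3 and H1-4 are left of 0 on the x axis and under 1 on the y axis.

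Members were also grouped by what is known or drawn of their messages. The list of 6 genes known to give polyadenylated messages too (H1-2, H2AC6, H2BC4, H2BC5, H2BC12 and H2BC21) had 6 of 6 rise in shM3, with JQ1 and with Molib, 5 of 6 rise with I-BET151, and 6 of 6 fall with either form of METTL3 put back. This list was chosen with earlier results of these data known, so its counts are no separate support. Among all members, 16 of 24 rose in shM3 and 24 of 31 with JQ1. The shares of all genes that rose were 17.9% in shM3, 14.5% with JQ1, 14.8% with Molib and 13.9% with I-BET151. Those that fell were 22.7% in shM3_WT and 4.59% in shM3_CD, both against shM3. The part of expression level in this split was not tested. Their median log2 difference was 1.60 in shM3 and 4.12 with JQ1, against 0.75 and 1.87 for the other members. By transcript model, 12 of 13 members with an extended model rose in shM3, against 4 of 10 with a short one. With JQ1 it was 16 of 16 against 7 of 13, and with I-BET151 13 of 16 against 3 of 13. H2BC18 and H3C10, among the 12, reached 1 FPKM in neither B5 library. H2AC11, H2BC4, H2BC15, H2BC18 and H3C10, among the 16, reached it in neither DMSO library. Such members were tested only because they were high in other groups. By position, 9 of 10 members on chromosome 1, 6 of 8 in the first chromosome 6 cluster and 8 of 11 in the second rose with JQ1. The chromosome 1 count holds both copies of H2AC18 and H2AC19, H3C14 and H3C15, and H4C14 and H4C15, which may share reads. These splits were not tested against each other.

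DNA replication genes went mostly the other way. Of 25 DNA replication genes, 22 fell and 1 rose in shM3 (median log2 -1.24), 24 rose and 1 fell in shM3_WT against shM3, and 23 fell and none rose with JQ1 (median -1.13). Of all genes, 19.9% fell in shM3, 16.7% rose in shM3_WT against shM3 and 20.6% fell with JQ1. The lowest adjusted p in shM3 belonged to TYMS (21.1 against 104 FPKM, log2 -2.25), E2F1 (9.55 against 40.3, -1.97), MCM6 (9.79 against 28.7, -1.46) and MCM5 (14.9 against 42.5, -1.45), which serve thymidylate synthesis, S phase transcription and the replicative helicase. With JQ1 they belonged to MCM5 (10.9 against 48.6, log2 -2.06), MCM2 (18.5 against 62.7, -1.71), FEN1 (22.9 against 77.5, -1.71) and E2F1 (11 against 40.1, -1.77). Histone chaperones, which carry histones to DNA, fell in 9 of 15 and rose in 1 in shM3, where 19.9% of all genes fell. With JQ1 7 fell, 1 rose and 7 did not pass, and 20.6% of all genes fell. ASF1B, a chaperone of H3 and H4, was at 21.8 in shM3 against 61.5 in B5 (log2 -1.45) and at 37.0 with JQ1 against 79.2 in DMSO (-1.08). In the libraries labelled I-BET151, 21 of 25 replication genes and 7 of 15 chaperones fell and none rose, while 14.1% of all genes fell. The part of these shifts in the histone result was not tested.

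SLBP, which binds the stem-loop, had 65.5 and 60.7 FPKM for B5, 41.3 and 34.8 for shM3, 54.3 and 63.4 for shM3_WT and 50.0 and 55.6 for shM3_CD, a fall of 0.72 on the log2 scale in shM3 (SE 0.12, adjusted p = 0.0036). SLBP also fell with JQ1, from 60.8 and 56.1 to 42.1 and 45.3 (log2 -0.41, SE 0.11, adjusted p = 0.026). NPAT, which activates the clustered genes in S phase, was at 5.92 and 6.66 in B5 and 3.08 and 3.38 in shM3 (log2 -0.78, adjusted p = 0.0020), and did not pass with JQ1 (3.43 and 3.33 in DMSO, 3.56 and 3.74 in JQ1). The whole list of 20 activators and 3′ end processing factors had 3 rises and 3 falls in shM3, where 17.9% of all genes rose and 19.9% fell. The list thus did not stand out from all genes there. CASP8AP2 fell (log2 -1.08) and LSM10, a part of the U7 snRNP, rose (0.64). With JQ1 the list had 9 falls and no rise, where 20.6% of all genes fell and 14.5% rose. Among the falls were SNRPB (log2 -0.79), SNRPE (-0.70), SNRPG (-0.48) and LSM11 (-0.55), all proteins of Sm or Lsm rings. SLBP and NPAT messages were lower or not detectably changed in groups where the members were higher.

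Replacement histones did not share the rise in shM3. Of 10 tested, 8 fell and none rose (median log2 -0.60), among them H2AZ2 (log2 -0.94), CENPA (-1.33) and H1-10 (-0.82), while 19.9% of all genes fell. In shM3_WT against shM3 9 of 10 rose, with H2AX at log2 1.06, while 16.7% of all genes rose. JQ1 split the list, with 4 rises and 3 falls of 11, where 14.5% of all genes rose and 20.6% fell. H3-3A (log2 0.64) and H1-10 (187 against 93.5, 0.99) rose, and CENPA (-1.40) and MACROH2A2 (-1.54) fell. RNAs that carry no poly(A) tail for other reasons were a further point of reference. None of 5 tested passed in shM3 against B5 (median log2 0.18), their summed level being 636 to 669 in B5 and 748 to 825 in shM3. In shM3_WT against shM3, 3 of 5 fell (median -1.23), among them RN7SL1 (102 against 363 FPKM, log2 -1.85) and RN7SK (0.875 against 10.0, -2.56), beside the falls of the members. Of all genes, 22.7% fell there. Of the 13 RNAs of this list, 6 were listed at 0 in both B5 libraries and 6 in both shM3_WT libraries. With JQ1 1 of 5 rose, SNORD3A (0.366 to 7.03, log2 2.56), and the sum was 313 to 369 against 266 to 463 in DMSO. Their part in the histone result was not tested.

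The CTRL table gave another picture. Here the members summed to 8645 and 9733 FPKM under CTRL, 4378 and 4516 under JQ1 and 897 and 861 under MW_JQ1. H1-2 was the highest in CTRL at 1019 and 1011, and H2BC17 was at 534 and 620, although it stayed under 4 FPKM in every library of the other 2 tables. Members such as H1-4 (648 and 559), H4C12 (564 and 567) and H3C2 (396 and 825) were also far above their levels in the other tables, which were not tested against this one. RNAs without a poly(A) tail stood out in the same libraries: RN7SL1 stood at 37435 and 52947 FPKM under CTRL, 50061 and 42965 under JQ1, and 23.8 and 57.6 under MW_JQ1. The 4 listed RNAs of that kind summed to between 41023 and 59703 in CTRL and JQ1 and to 23.9 and 57.9 in MW_JQ1, where 2 of the 4 were listed at 0. The labels describe a preparation that depletes ribosomal RNA and takes poly(A)- or poly(A)+ fractions, without saying which samples it covers.

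JQ1 against CTRL gave no passing member of 38 and no passing gene of 13261 (0.0%), with 18 members and 2048 genes at an unadjusted p under 0.05 in limma. The values pointed mostly down (median log2 -1.30 for the members, -0.00 for all genes). H1-2 was at 659 and 690 with JQ1 (log2 -0.59, SE 0.13, adjusted p = 0.15), H4C12 at 93.7 and 63.8 (log2 -2.85, SE 0.27, adjusted p = 0.080) and H3C2 at 292 and 152 (log2 -1.43, adjusted p = 0.29). H2AC18 was at 521 and 571 in CTRL and 344 and 389 with JQ1 (log2 -0.58, adjusted p = 0.20), and H2BC5 at 838 and 549 against 619 and 738 (-0.01). The 1 member well above CTRL was H2AC6, chosen here after its values were seen: it was at 14.7 and 26.2 in CTRL and at 158 and 225 with JQ1 (log2 3.20, SE 0.37, adjusted p = 0.080). Without CTRL replicate 2 it passed, alone among the members in limma.

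MW_JQ1 was lower than JQ1 in 24 members and higher in 1 of 38 (15.2% of all genes passed, 1.62% by being lower and 13.5% by being higher), with a median of -2.74 against 0.75 for all genes. H1-4 was at 206 and 186 FPKM in JQ1 and 0.596 and 0.675 in MW_JQ1 (log2 -6.91, SE 0.21, adjusted p = 0.00089), H4C3 at 182 and 148 against 0.248 and 0.754 (log2 -6.80), H3C2 at 292 and 152 against 1.76 and 1.04 (-6.48) and H2AC20 at 140 and 215 against 1.16 and 1.94 (-6.11). H3C3 (-5.68), H4C2 (-6.11), H2BC17 (-4.87), H4C11 (-4.79) and H4C12 (-4.78) lay far lower too, and H3C1 and H2BC3 were listed at 0 in both MW_JQ1 libraries. Of the 6 members with known polyadenylated messages, 4 were lower (median log2 -1.70, against -3.60 for the other 32, a difference that was not tested). H2BC4 was the lowest of them, at 234 and 384 in JQ1 and 42.4 and 45.6 in MW_JQ1 (log2 -2.74), and H2BC21 was at 20.9 and 15.3 in MW_JQ1 (-1.54). H1-2 was at 152 and 149 (log2 -2.15), H2BC5 at 184 and 190 (-1.85), H2AC6 at 144 and 108 (-0.59, adjusted p = 0.37) and H2BC12 at 143 and 121 (-1.02, adjusted p = 0.076). H2AC18 was at 109 and 122 (log2 -1.66). H4C9 was the 1 member that was higher (0.0429 and 0.0197 in JQ1, 3.20 and 3.36 in MW_JQ1, log2 2.05). It reached 1 FPKM in the MW_JQ1 libraries alone, so it was tested only because it was high there, and its call is no support.

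Without either MW_JQ1 library the count of lower members was 11. Scaling to equal medians moved the median of all genes from 0.75 to 0.15 and gave 28 lower members and 1 higher. The share of RNAs without a poly(A) tail changed with the group here (3 of 4 tested were lower in MW_JQ1, median log2 -8.30), so a difference in the RNA fraction sequenced and an effect of MW cannot be told apart.

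**Figure D5:**
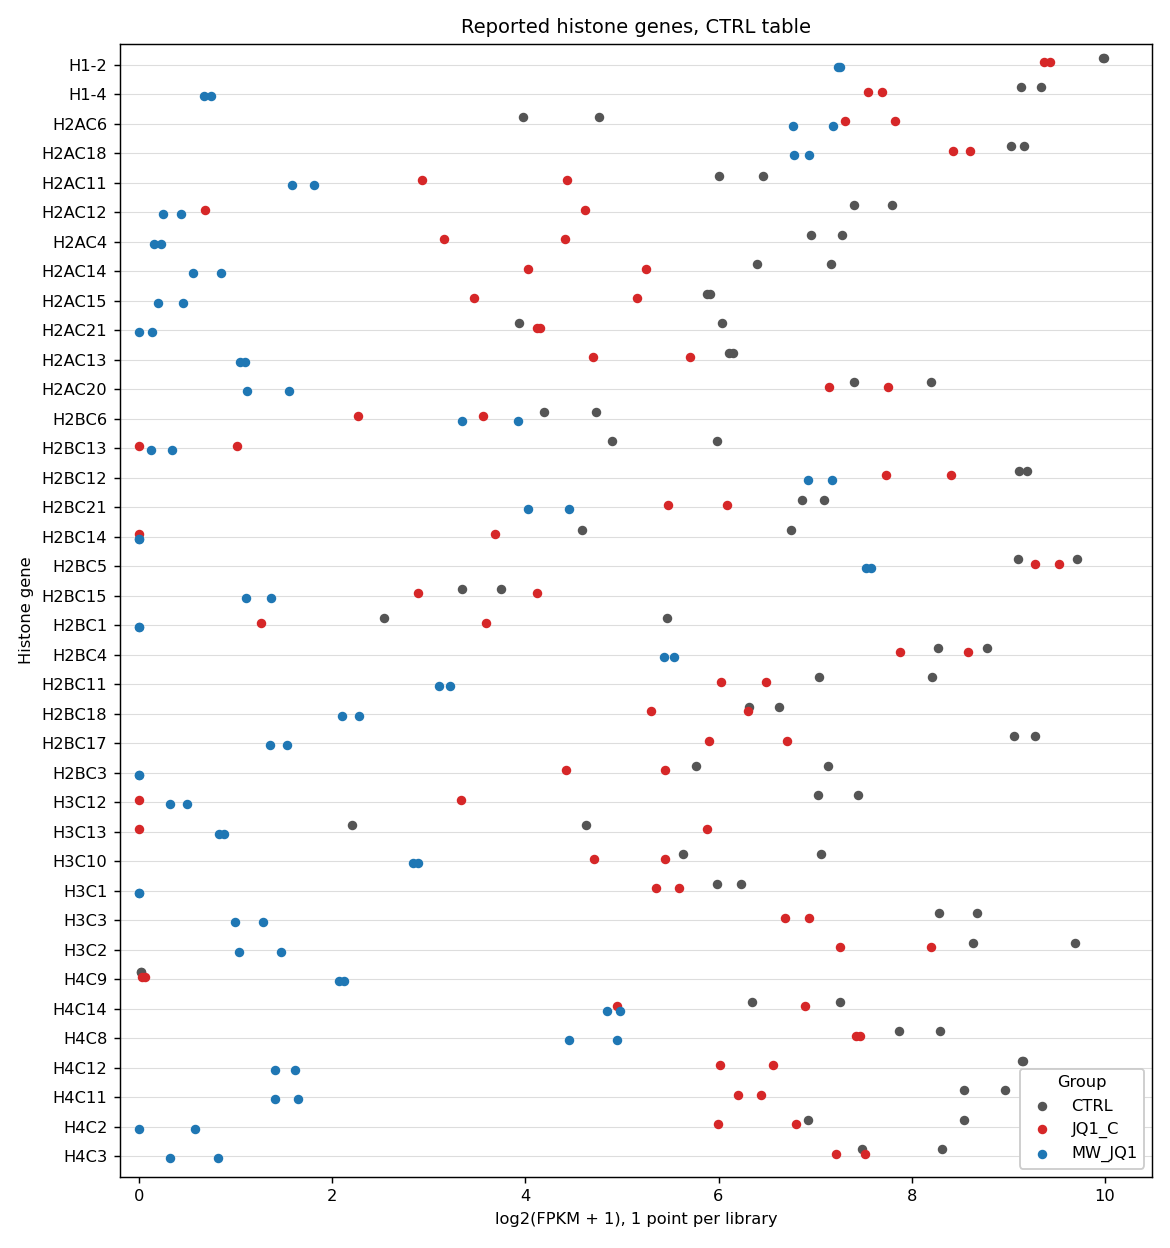
Points give log2(FPKM + 1) of each of the 38 histone genes of the CTRL table (y axis, by family and then by the size of the MW_JQ1 minus JQ1 difference) in the 2 libraries of CTRL, JQ1 (JQ1_C) and MW_JQ1. MW_JQ1 points of H3C1, H3C12, H4C2, H4C3, H2AC4, H2AC12, H2AC15 and H2AC21 lie under 1 FPKM. Those of H4C14 (30.6 and 27.8 FPKM), H4C8 (20.9 and 29.9) and H3C10 (6.42 and 6.14) lie higher. Those of H1-2, H2BC5, H2BC12, H2AC6 and H2AC18 stay above 100 FPKM.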

How the data were processed

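The 3 deposited tables hold FPKM as the authors computed it. FPKM is named for the knockdown table, and the unit of the other tables follows from their format and sums. The submitters' processing notes name CASAVA 1.4, HISAT2 2.1.0, Cufflinks 2.2.1 and hg38 with no roles; annotation and strand use were not stated. The CTRL table also holds the authors' mean signal score (used here), log2 fold change and p-values (unused), per the file headers. If the commonest lowest step is 1 fragment, 1 FPKM over 500 bases is 6.54 to 9.60 fragments in the 16 libraries of the other tables. Depth is otherwise unknown.

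Each table was fitted with all its groups as log2(FPKM + 1) with limma 3.58.1 (trend) in R 4.3.3, keeping genes that reached 1 FPKM in 2 libraries, after tests on simulated data. Members, the 11 gene lists and tests were chosen with earlier results of these data known. Named per comparison were passing members without overlap, up to 10 by size, and each family's highest member; of other lists SLBP, NPAT and up to 4 of the lowest adjusted p. Other members named were chosen after their values were seen. Python 3.11.15 made the summaries. One gene of the lists is not reported here by name.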

Additional observations from a re-analysis of the deposited data

Results flagged for a closer look

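JQ1 was set against its control in both the DMSO table and the CTRL table. In 13 members that rose with JQ1 in the first, both JQ1 libraries were above both DMSO libraries, while in the second both JQ1 libraries were below both CTRL libraries. The difference between the tables was not tested, and no member passed in the second. The share of all genes with such opposite values was not computed, so the pattern is not shown to be particular to the members. In log2 units, the change in the DMSO table less that in the CTRL table was 5.19 for H2BC21, 4.74 for H2AC11, 4.65 for H2AC18, 4.24 for H2BC6, 4.05 for H4C8, 3.71 for H3C10, 3.67 for H2BC11 and 3.60 for H2BC17. It was 3.13 for H1-2, 2.96 for H3C2, 2.83 for H2BC18, 2.82 for H2BC12 and 2.42 for H2AC13. Of the 26 members reported in both tables, all 26 had a positive value in the DMSO table and 24 a negative one in the CTRL table. RNAs without a poly(A) tail summed to 266 to 463 FPKM in DMSO and to 41023 to 59703 over the CTRL and JQ1 libraries of the CTRL table, and their part in this was not tested.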

How the results depend on the processing

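The alternatives were a replicate block, the compared groups alone, a pseudocount of 0.1, no filter, a filter at 5 FPKM, TMM factors, equal medians and leaving out each library. Added after seeing the data were identical copies summed and, in the DMSO table, a fit without both I-BET151 libraries. A group left with 1 library takes the spread of the others. With the filter at 5 FPKM, where 10 members were tested, 10 passed in shM3 against B5 and 10 in shM3_WT against shM3, and with no filter 7 passed in shM3_WT against shM3_CD. Leaving out 1 library gave 6 to 8 for shM3_CD against shM3, 6 to 7 for shM3_WT against shM3_CD, 0 to 1 for JQ1 against CTRL and 11 to 26 for MW_JQ1 against JQ1. The other counts stayed within 1.5 times. Of 137 values for named members, 116 kept their call in every alternative and none reversed. Replicate numbers did not pair the libraries (correlations of deviations from -0.12 to 0.04). With the replicate block 18 members passed in shM3 against B5, 18 in shM3_WT against shM3, 12 in shM3_CD against shM3, 9 in shM3_WT against shM3_CD, 22 in Molib against DMSO, 16 in I-BET151 against DMSO, 22 in I-BET151 against Molib, 0 in JQ1 against CTRL and 24 in MW_JQ1 against JQ1. No paired analysis was possible for the other comparisons because JQ1 of the DMSO table has no replicate numbers. Near 1 FPKM, a member rests on few fragments.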
